A study of Homo sapiens with 12 samples.

Results

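The 37 genes described here encode proteins of neurons and are listed as targets of the transcriptional repressor REST and its partner CoREST. They were taken by name from that list and not by a rule on values in these data, although earlier results of these data were known. They make up 37 of the 19970 protein-coding genes of chromosomes 1 to 22 and X. By role, 9 of them act in the release of synaptic vesicles, 6 are secreted or belong to dense-core granules, 4 are voltage-gated channels, 7 receive or make transmitters, 8 are cytoskeletal and 3 act in adhesion and signalling.

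The mark measured was H3K4me2, a methylated form of histone H3 that is found at promoters and enhancers, by chromatin immunoprecipitation followed by sequencing. The cells were U-937, an established human leukaemia line with features of monocytes, classed in the labels as acute myeloid leukaemia. The cells were cultured for 24 hours with the vehicle DMSO, with all-trans retinoic acid (ATRA) at 0.1 µM, with Corin at 0.1 µM, or with both drugs at 0.1 µM each. Each treatment had 2 H3K4me2 libraries and 1 input library, 12 libraries in all. The authors deposited 1 list of peaks per treatment, so replicates cannot be compared, no p-value is given, and each difference below is a difference between lists. The labels do not say whether the libraries of a treatment came from separate cultures, and all of them come from the same cell line. A list of peaks measures neither gene expression nor the binding of REST, and in a bulk sample fewer cells with the mark cannot be told apart from less of the mark per cell.

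REST binds a long DNA element called RE1 near many neuronal genes and holds them silent outside the nervous system. It recruits CoREST, a scaffold that joins the histone demethylase LSD1 (gene KDM1A) to the deacetylases HDAC1 and HDAC2. LSD1 removes methyl groups from H3K4me1 and H3K4me2, and Corin is a synthetic inhibitor that acts on both LSD1 and the deacetylases of the complex.

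Of 10 monocytic and myeloid marker genes, 8 had a peak over the start site with DMSO, ATRA or Corin, among them SPI1, CSF1R and CD68, and 5 had one with ATRA+Corin. The start sites of CEBPA, CD33 and LYZ were covered in the other lists and uncovered with ATRA+Corin. Among all protein-coding start sites covered in DMSO, 25.2% were uncovered with ATRA+Corin. The windows of CEBPA, CD33 and LYZ (gene body and 20 kb on each side of the start site) did not lose covered length. They held 16.8, 7.66 and 19.6 kb under a peak with ATRA+Corin, compared with 14.1, 4.82 and 12.4 kb in DMSO. The start site of FCGR1A was uncovered in all 4 lists, though its window held peaks in each. MPO, a defining gene of granules in myeloid precursors, had no peak in its window in any list. The start sites of SOX2, NEUROD1, RBFOX3 and ELAVL3, which mark neural progenitors and neurons, had no peak in any of the 4 lists. Start sites were covered for 2 or 3 of the 5 B cell markers, for 1 of the 5 T cell markers and for 0 of the 5 erythroid markers. Over all protein-coding genes the covered share was 47.3% (DMSO), 48.1% (ATRA), 38.0% (Corin) and 38.0% (ATRA+Corin). The lists held 65172 peaks (DMSO), 66385 (ATRA), 73997 (Corin) and 83969 (ATRA+Corin). The depth of the H3K4me2 libraries, relative to DMSO, was 1.02 (ATRA), 1.10 (Corin) and 1.199 (ATRA+Corin), and its part in the differences between lists was tested only by equalising it, as given in the closing section.

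The letters of the RE1 element were searched for in the genome, since they are what the 37 genes are listed for. The pattern was CAGCACC, 2 free bases, GGACAG, 1 free base and GCC, on both strands, with at most 2 mismatches over the 16 fixed bases. The printed sites run 5′ to 3′ on the strand of the match and start 2 bases before the pattern. Capitals mark fixed bases that match, and lower case marks free or mismatched bases. The first 6 sites below match all fixed bases and lay under a DMSO peak, the next 6 match all fixed bases and lay under no DMSO peak, and the last 4 hold mismatches beside start sites named later.
SYN1, chrX:47620070-47620090, minus strand, 223 bases upstream of the start site: ttCAGCACCgcGGACAGtGCC
SYP, chrX:49200122-49200142, minus strand, 61 bases downstream in intron 1: tcCAGCACCgtGGACAGaGCC
CHGB, chr20:5911704-5911724, plus strand, 204 bases downstream in intron 1: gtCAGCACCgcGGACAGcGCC
CHRNB2, chr1:154567954-154567974, plus strand, 186 bases downstream in the 5′ UTR: ttCAGCACCacGGACAGcGCC
TUBB3, chr16:89926504-89926524, plus strand, 3172 bases downstream in intron 1: gtCAGCACCaaGGACAGcGCC
NEFH, chr22:29478675-29478695, minus strand, 1533 bases upstream: ttCAGCACCggGGACAGgGCC
UNC13A, chr19:17681753-17681773, minus strand, 6591 bases downstream in intron 1: ttCAGCACCgtGGACAGcGCC
CHGA, chr14:92923523-92923543, plus strand, 383 bases downstream in intron 1: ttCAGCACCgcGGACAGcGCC
GRIN1, chr9:137139260-137139280, plus strand, 116 bases downstream in the 5′ UTR: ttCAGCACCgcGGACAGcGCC
GRIA2, chr4:157220388-157220408, minus strand, 330 bases upstream: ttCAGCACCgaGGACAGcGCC
INA, chr10:103279008-103279028, minus strand, 1880 bases downstream in intron 1: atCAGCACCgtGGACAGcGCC
BDNF, chr11:27720676-27720696, minus strand, 20231 bases upstream: ttCAGCACCttGGACAGaGCC
VGF, chr7:101165559-101165579, plus strand, over the start site: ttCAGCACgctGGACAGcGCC
RUNDC3A, chr17:44308608-44308628, plus strand, 17 bases downstream in the 5′ UTR: ctCAGCACCtcGGAgAGctCC
SNAP25, chr20:10219672-10219692, plus strand, 852 bases downstream in intron 1: ttCAGCACCggGGACAGcGgt
SCN2A, chr2:165238484-165238504, plus strand, 920 bases upstream: ctCAGCACCatGGACAGcGtt
The window of a gene was its body joined with 20 kb on each side of the canonical start site. At least 1 match lay in the windows of 27 of the 37 genes (73.0%, compared with 22.1% of all protein-coding windows). A match of all 16 fixed bases lay in the windows of 13 of them (35.1%, compared with 0.806%), and a match within 1 kb of the start site was found at 18 (48.6%, compared with 1.58%). The genes are listed for such elements, so this excess is a check of the list and not a finding, and a match is a description of letters and not a site of binding.

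The set of marked neuronal start sites was nearly the same in the 4 lists. A peak lay over the start site of 13 of the 37 genes after DMSO (35.1%, Wilson 95% interval 21.8 to 51.2%) and of 13 after ATRA. The count was 12 after Corin and 12 after ATRA+Corin (32.4%, 19.6 to 48.5% for each). Over all protein-coding genes the covered share was 47.3% (DMSO), 48.1% (ATRA), 38.0% (Corin) and 38.0% (ATRA+Corin), so the neuronal shares were lower in each list, and the background share lay inside the interval in each. Intervals here cover counting error only.

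Over all 19970 protein-coding genes, 6151 start sites were covered in all 4 lists, so such constant cover is not particular to the neuronal genes. Among the neuronal genes the same 12 were covered in all 4 lists. They were SYN1, SYP and SYT7 of the vesicle release group, CHGB, SCG3, VGF and BDNF of the secreted group, the sodium channel gene SCN8A, the muscarinic receptor gene CHRM4, GAD1, which encodes an enzyme that makes GABA, and the cytoskeletal genes STMN3 and TUBB3. Of the 24 start sites without a DMSO peak, 0 gained one with ATRA, with Corin or with ATRA+Corin, which allows a share of up to 12.5%. Among all uncovered start sites 8.90% gained cover with ATRA, 4.39% with Corin and 5.09% with ATRA+Corin, so a count of 0 of 24 is not distinguishable from those shares. Of the 13 covered start sites, 0 lost cover with ATRA, 1 with Corin and 1 with ATRA+Corin (7.69%, 1.37 to 33.3%), compared with 8.23%, 24.4% and 25.2% of all covered start sites. The last 2 of these background shares lie inside the interval. Against ATRA alone the combination gained 0 of 24 (background 3.83%) and lost 1 of 13 (background 25.0%). Against Corin alone it gained 0 of 25 (background 9.06%) and lost 0 of 12 (background 14.8%).

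**Figure D1:**
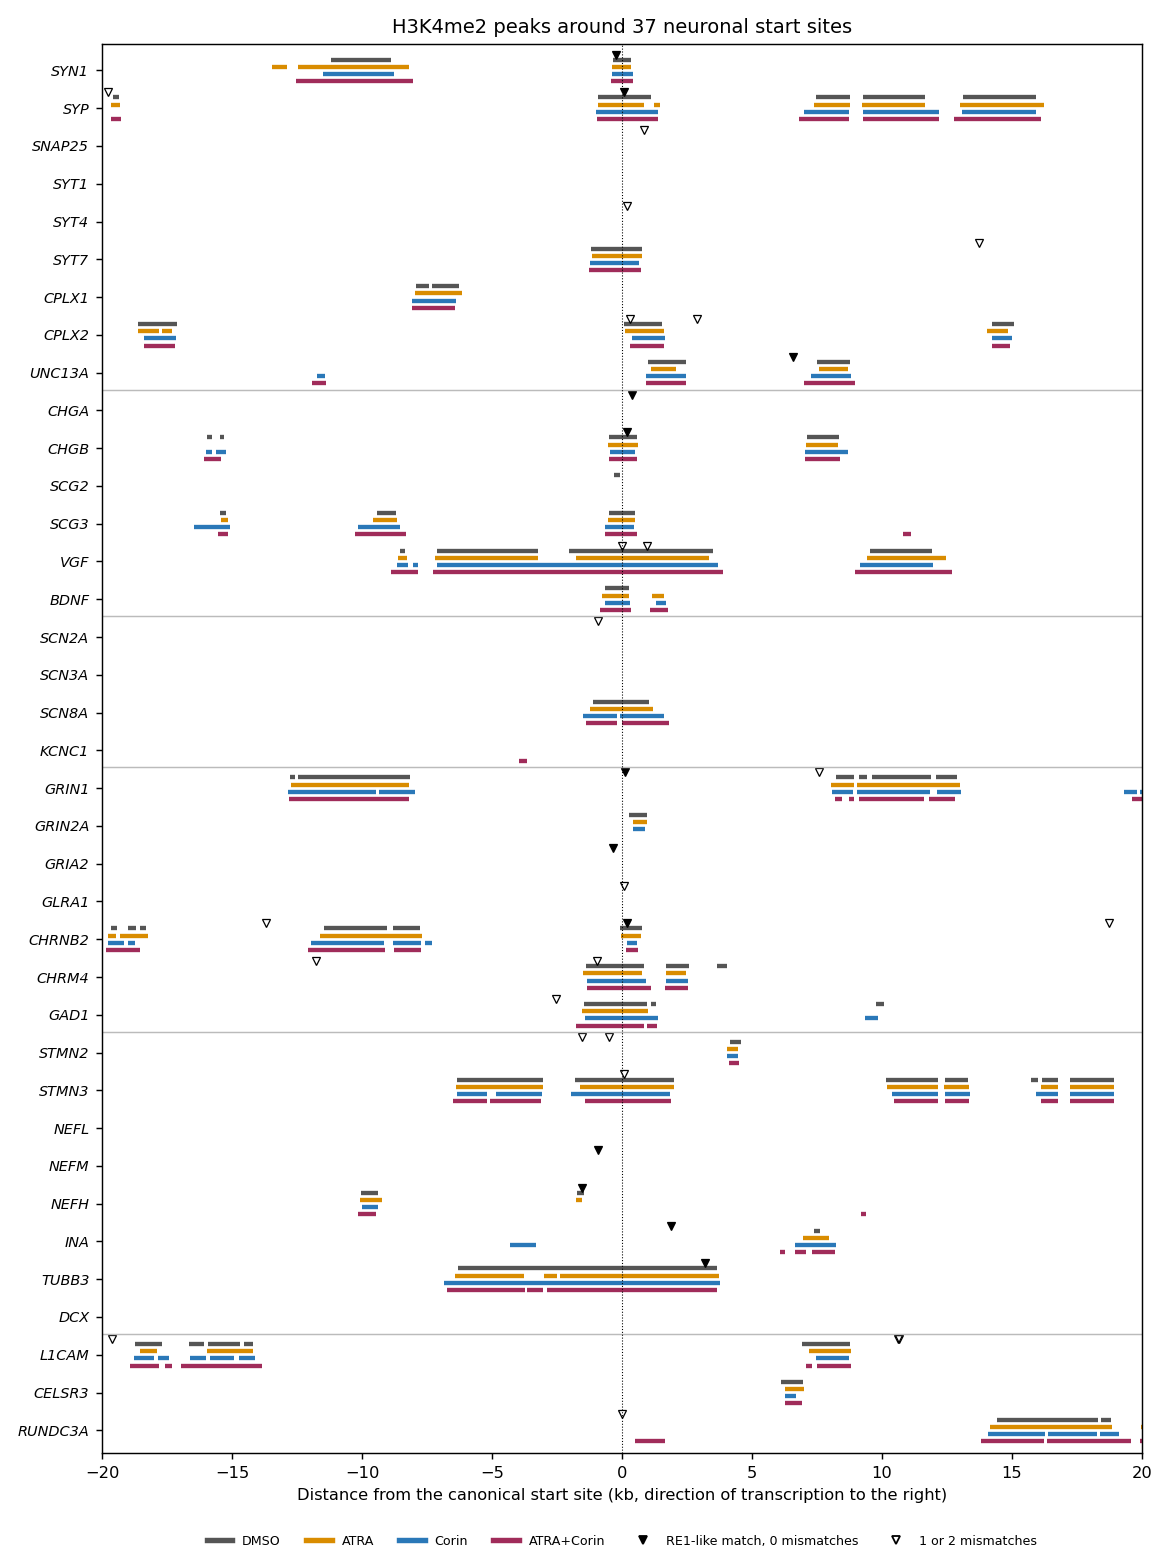
Peaks (bars, 1 colour per list) within 20 kb of the canonical start sites of the 37 genes, grouped by role, with distance in kb on the x axis and triangles at RE1-like matches. The start sites that are covered carry a bar in all 4 lists, except CHRNB2, and the rows without a bar are the 9 genes with no peak in their window together with SNAP25 and SCN2A, whose peaks lie farther inside the gene.

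The gene whose cover changed was CHRNB2 (chromosome 1, start site 154567778, plus strand), which encodes a subunit of nicotinic acetylcholine receptors. Its DMSO peak began 59 bases upstream of the start site and its ATRA peak 32 bases upstream. The nearest Corin peak began 193 bases downstream and the nearest ATRA+Corin peak 143 bases downstream. The mark therefore stayed at the gene and its upstream edge lay on the other side of the start site, and the RE1-like match 186 bases downstream lay under a peak in all 4 lists. When a peak within 1 kb was counted, 16 genes had one after DMSO (43.2%, 28.7 to 59.1%), 15 after ATRA (40.5%, 26.3 to 56.5%) and 16 in each of the 2 lists with Corin. Over all genes this wider share was 61.3% (DMSO), 61.5% (ATRA), 61.5% (Corin) and 62.3% (ATRA+Corin), above the counting interval of the neuronal genes in each list. The genes added by that wider count were CHRNB2 in both lists with Corin, CPLX2 in every list, GRIN2A in all but the ATRA+Corin list, SCG2 in DMSO alone, UNC13A likewise in both lists with Corin, and RUNDC3A in ATRA+Corin alone.

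By role, the groups are small and no test was made between them, and the lengths below include stretches over the starts of other genes, such as TIMP1 and CFP in the vesicle release group. Among the 9 vesicle release genes 3 start sites were covered in each list, and their windows held 29.2 kb under a peak in DMSO, 34.0 kb in ATRA, 35.0 kb in Corin and 42.05 kb in ATRA+Corin. The 6 secreted and granule genes had 4 covered start sites in each list and 17.8, 18.6, 22.9 and 24.7 kb in the same order. The 4 channel genes had 1 covered start site and 7.11, 10.1, 9.82 and 14.0 kb. The 7 transmitter genes had 3 covered start sites in DMSO and ATRA and 2 in Corin and ATRA+Corin, with 22.5, 23.2, 24.5 and 23.2 kb. The 8 cytoskeletal genes had 2 covered start sites and 24.2, 24.1, 26.2 and 24.4 kb. The 3 adhesion and signalling genes had 0 covered start sites and 10.5, 9.87, 10.2 and 13.9 kb. Covered length was highest in ATRA+Corin for 4 of the 6 groups and highest in Corin for the transmitter and cytoskeletal groups.

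A group of 9 genes had no peak in the window in any of the 4 lists. They were the calcium sensor gene SYT1 and its relative SYT4, the granule protein gene CHGA, the sodium channel gene SCN3A, the AMPA receptor gene GRIA2, the glycine receptor gene GLRA1, the neurofilament genes NEFL and NEFM, and DCX, which encodes a microtubule-binding protein of migrating neurons. CHGA and GRIA2 hold a match of all 16 fixed bases within 1 kb of the start site, printed above, and NEFM holds one too. The share of all genes without a peak in any of the 4 lists is not given here. Per list, a peak lay in the window of 28 of the 37 genes in DMSO (75.7%, 59.9 to 86.6%) and 27 in ATRA (73.0%, 57.0 to 84.6%). In Corin and in ATRA+Corin it was 26 each (70.3%, 54.2 to 82.5%). Of all windows 81.8%, 82.7%, 83.1% and 84.4% had one. That background lay inside the interval for DMSO and ATRA and just above it for Corin and ATRA+Corin. The gene with a DMSO peak and none in the other lists was SCG2, a granin gene with a peak of 213 bases that ended 79 bases upstream of its start site. KCNC1, a potassium channel gene, had no Corin peak, and GRIN2A, an NMDA receptor gene, had no ATRA+Corin peak.

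The covered length in the windows was greater with each drug, and less so than over all genes. The 37 windows held 111.3 kb under a peak in DMSO, 119.9 kb in ATRA (7.68% more), 128.7 kb in Corin (15.6% more) and 142.3 kb in ATRA+Corin (27.8% more). Summed over all protein-coding windows the excess over DMSO was 10.7%, 24.9% and 39.4%. Of the regions behind these sums, 10 lay over the start site of another gene and not of a neuronal one, such as CFP and TIMP1 beside and within SYN1. Without these 10 regions the excess was 5.29%, 16.7% and 27.0%. Leaving out SCN8A and UNC13A, the 2 genes with the largest differences, it was 5.33%, 11.6% and 18.2% over the other 35.

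Per gene, 16 of the 37 had more covered length in ATRA than in DMSO (43.2%, 28.7 to 59.1%, background 61.6%) and 12 had less (32.4%, 19.6 to 48.5%, background 21.8%). In Corin 18 had more (48.6%, 33.4 to 64.1%, background 73.0%) and 10 had less (27.0%, 15.4 to 43.0%, background 10.7%). In ATRA+Corin 18 had more (background 77.1%) and 10 had less (background 7.76%). The other 9 were at 0 in every list. The median difference over the 37 genes was 0 kb for each of these 3 contrasts, and over all genes it was 0.188 kb for ATRA, 0.641 kb for Corin and 0.992 kb for ATRA+Corin. Against ATRA alone the combination covered more in 17 (background 74.4%) and less in 10 (background 10.6%), and against Corin alone more in 16 (background 63.2%) and less in 11 (background 21.6%). The share of neuronal windows with more covered length than in DMSO lay below the background for each drug list, with the background outside the counting interval. The share with less lay above it, with the background outside the interval for Corin and ATRA+Corin and inside it for ATRA. The neuronal windows also held less in DMSO, with a median of 1.24 kb in DMSO compared with 3.63 kb over all genes, and 1.84 kb in ATRA+Corin compared with 4.99 kb.

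**Figure D2:**
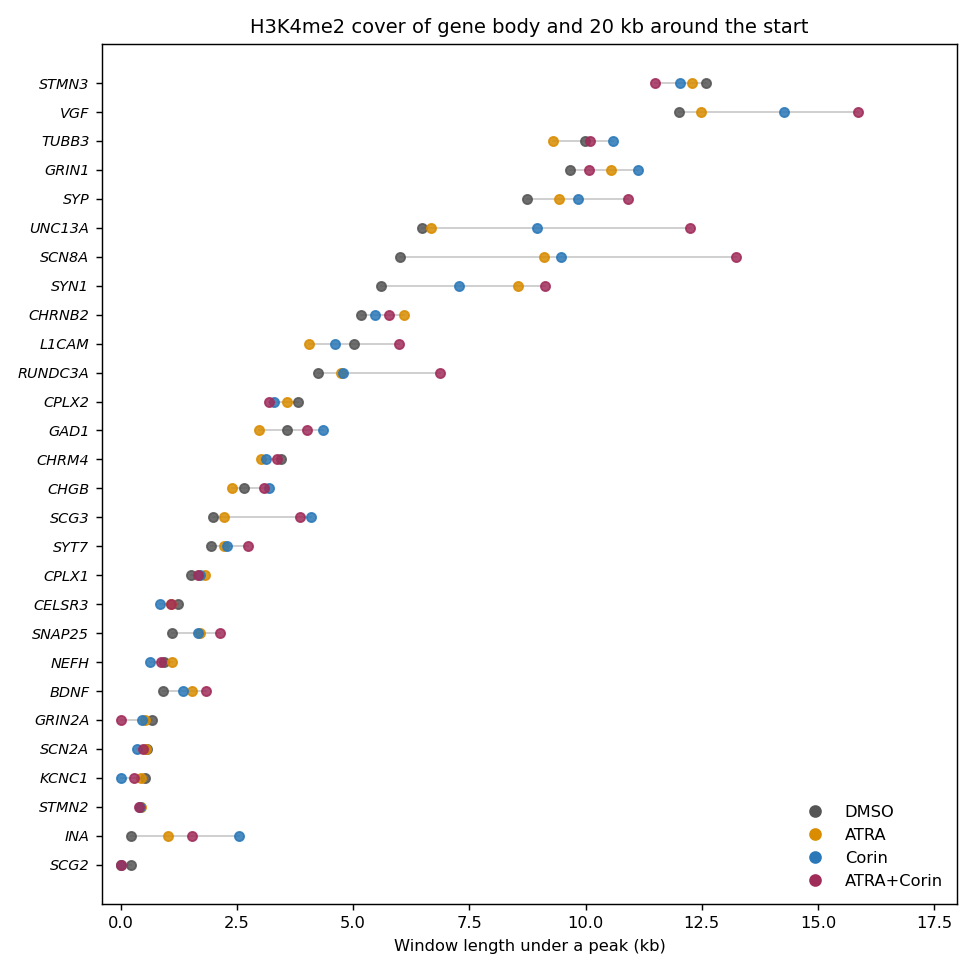
Length of each window under a peak (kb, x axis) for the 28 genes with a peak in any list, 1 point per list, ordered by the DMSO value. SCN8A, UNC13A and VGF show the widest spread, from 6.02 to 13.2 kb for SCN8A, and 18 of the genes differ by under 1 kb between ATRA+Corin and DMSO.

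SCN8A had the largest difference. It encodes a voltage-gated sodium channel of the nodes and initial segments of axons, and its window spans 241.6 kb. The window held 6.02 kb under a peak in DMSO, 9.12 kb in ATRA, 9.47 kb in Corin and 13.2 kb in ATRA+Corin, in 8, 11, 11 and 15 peaks. The combination list was highest and the DMSO list lowest. Most of the added length lay inside the gene, far from its start. There 3 regions were found in each drug list and not in DMSO, 2 in ATRA and ATRA+Corin only, and 3 in ATRA+Corin only. The strongest of these in ATRA+Corin, in intron 9 (chr12:51703883-51704709, 112.65 kb downstream), had a −log10 q of 4.05 in ATRA, 5.73 in Corin and 14.4 in ATRA+Corin and no DMSO peak. The others found in each drug list had 0.622 and 2.72 in ATRA+Corin, and 3.19 and 8.06 in Corin. The 2 found in ATRA and ATRA+Corin only had 4.05 and 5.65 in ATRA, and 5.11 and 3.44 in ATRA+Corin. Those found in ATRA+Corin only had 2.05, 4.34 and 4.20. Here −log10 q is the authors' own value for a peak, higher for a stronger call. It ranks and filters peaks within a list, and where values from different lists stand side by side no change is read from them. At the start itself the peak reached 1114 bases upstream in DMSO, 1251 in ATRA, 92 in Corin and 4 in ATRA+Corin, and it reached 1054, 1201, 1606 and 1794 bases downstream. In both lists with Corin a separate peak lay farther upstream, so the start site fell near a gap between peaks. The peaks around the start site also held a smaller part of the added length in each drug list.

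UNC13A, which encodes a protein that primes synaptic vesicles for fusion, held 6.49 kb under a peak in DMSO, 6.67 kb in ATRA, 8.95 kb in Corin and 12.2 kb in ATRA+Corin. The DMSO and ATRA lists were close and the combination was highest. Its start site was uncovered in all 4 lists, with the nearest peak between 909 and 1097 bases downstream in intron 1. Of its regions 3 were found in ATRA+Corin only, and the strongest of these (chr19:17651509-17652755, exon 12 and the introns beside it) had a −log10 q of 16.5. The RE1-like match 6591 bases into the gene lay 894 bases from the nearest DMSO peak.

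VGF encodes the precursor of several neuropeptides. Its window held 12.02 kb under a peak in DMSO, 12.5 kb in ATRA, 14.3 kb in Corin and 15.9 kb in ATRA+Corin. Part of this length lay over the start site of AP1S1 (chr7:101152877-101156591). That peak ran from 9527 to 11926 bases downstream of the VGF start site in DMSO and from 8978 to 12692 in ATRA+Corin. The peak over the VGF start site was 5539 bases wide in DMSO, 5111 in ATRA, 10797 in Corin and 11138 in ATRA+Corin. The 2 wide peaks span, without a gap, the stretch that held 2 separate peaks in the lists without Corin, so the change in width is larger than the change in covered length. The RE1-like match over its start site lay under the peak in all 4 lists.

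SYN1 encodes a phosphoprotein on the surface of synaptic vesicles. Its window held 5.60 kb in DMSO, 8.55 kb in ATRA, 7.28 kb in Corin and 9.13 kb in ATRA+Corin. The peak over the SYN1 start site itself was 701, 717, 782 and 825 bases wide in the same order. The start site peak therefore differed little, and most of the added length lay at the start sites of TIMP1, which sits within intron 5 of SYN1, and of CFP, 10073 bases from the SYN1 start site. SYP, which encodes a membrane protein of synaptic vesicles, held 8.74 kb, 9.43 kb, 9.83 kb and 10.9 kb, and its start site was covered in every list. Part of the SYP length lay over the start site of PRICKLE3 (chrX:49183959-49187440).

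RUNDC3A, a gene for a RUN domain protein of neurons, held 4.24 kb in DMSO, 4.75 kb in ATRA, 4.79 kb in Corin and 6.88 kb in ATRA+Corin. All of its DMSO cover lay in a region downstream of the gene over the start site of SLC25A39 (chr17:44322423-44328165). RUNDC3A was the gene with a gained region within 1 kb of its start site, 503 bases downstream in intron 1 (chr17:44309104-44310265), found in ATRA+Corin only with a −log10 q of 10.3. The RE1-like match 17 bases downstream of the start site was not under it. SCG3, a granin gene, held 1.99, 2.22, 4.10 and 3.86 kb, with both lists with Corin above the others.

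INA, which encodes the neurofilament protein alpha-internexin, held 0.218 kb in DMSO, 1.02 kb in ATRA, 2.55 kb in Corin and 1.53 kb in ATRA+Corin. Its start site was uncovered in all 4 lists. A region in intron 1 (chr10:103283785-103285373, 6.65 kb downstream) had a −log10 q of 4.75 in DMSO, 9.52 in ATRA, 25.7 in Corin and 39.0 in ATRA+Corin, and a region 3327 bases upstream was found in the Corin list only.

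SNAP25, a core protein of the complex that fuses vesicles with the membrane, held 1.11 kb in DMSO, 1.70 kb in ATRA, 1.66 kb in Corin and 2.14 kb in ATRA+Corin, with the start site uncovered. The peak at the far end of the gene, 87.2 kb downstream over exon 8, was present in all lists with a −log10 q of 11.7, 23.3, 42.5 and 58.9. SCN2A, a sodium channel gene of axons, held 0.561, 0.540, 0.356 and 0.492 kb, all in intron 1 and 42465 bases or farther from the start site. Neither of these 2 genes, which are often used as examples of REST targets, had a peak within 20 kb of the canonical start site in any list.

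The strongest start site peaks in DMSO, by the authors' −log10 q, were those of STMN3 (359), TUBB3 (267), CHRM4 (207), SYP (205) and GAD1 (177). Their deposited folds over input were 74.8, 59.2, 34.7, 50.9 and 41.2. Over all 6151 start sites covered in all 4 lists the median −log10 q in DMSO was 106. These values belong to the summit of each peak. For TUBB3 the summit lay 2558 bases downstream of the start site, so its value is not one at the start itself. For the others it lay within 1 kb. SYP is described above; for STMN3 and CHRM4 the covered length was lower than in DMSO in each drug list, and for TUBB3 and GAD1 the drug lists lay on both sides of it. STMN3, which encodes a tubulin-binding protein, held 12.6 kb in DMSO, 12.3 kb in ATRA, 12.03 kb in Corin and 11.5 kb in ATRA+Corin, the lowest value in the combination. TUBB3, a neuronal tubulin gene, held 9.99, 9.29, 10.6 and 10.1 kb, in a domain that also covers the start site of the neighbouring melanocortin receptor gene MC1R. CHRM4 held 3.46, 3.03, 3.13 and 3.36 kb and GAD1 held 3.58, 2.99, 4.35 and 4.01 kb, lowest in the ATRA list for both.

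Peaks near the start sites of GRIN2A, NEFH and CPLX2 also differed between the lists. GRIN2A had a peak 284 bases from its start site in DMSO with a −log10 q of 17.5, one 437 bases away in ATRA (20.8) and in Corin (2.93), and none in ATRA+Corin, and its covered length was 0.684, 0.522, 0.462 and 0 kb. NEFH, the heavy neurofilament gene, had a peak over the RE1-like match 1533 bases upstream of its start site in the DMSO list (−log10 q 3.84) and in the ATRA list (5.24) and none there in the lists with Corin. The NEFH window as a whole held 0.923 kb in DMSO, 1.10 kb in ATRA, 0.632 kb in Corin and 0.879 kb in ATRA+Corin, so it was not lower in every drug list. CPLX2, which encodes a protein that binds the vesicle fusion complex, had a peak whose near edge lay 83 bases downstream of the start site in DMSO, 106 in ATRA, 370 in Corin and 323 in ATRA+Corin.

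The peaks of the windows fell into 101 separate regions after overlapping peaks of the 4 lists were joined, out of 84577 over the genome. Of these 59 were present in all 4 lists (58.4%, compared with 51.2% of all regions) and 12 in ATRA+Corin only (11.9%, compared with 16.3%). Against DMSO the windows gained 11 regions and lost 8 with ATRA, gained 12 and lost 8 with Corin, and gained 23 and lost 8 with ATRA+Corin. As shares of the regions in either list, the gained ones were 13.3%, 14.3% and 24.2%, compared with 16.4%, 22.4% and 34.9% of all regions. The lost ones were 9.64%, 9.52% and 8.42%, compared with 7.58%, 7.46% and 4.55%. Against ATRA the combination gained 18 (19.4%, background 28.4%) and lost 6 (6.45%, background 4.97%), and against Corin it gained 16 (17.4%, background 24.0%) and lost 5 (5.43%, background 6.59%). The gained share was below the background in each contrast, and the lost share was above it in 4 of them. No interval was computed for these shares, and the lost counts are small, from 5 to 8. The contrasts also reuse the same 4 lists and do not repeat each other, so no difference in lost regions is read from them. When each list was cut to the same number of its strongest peaks, the combination gained 12 and lost 10 regions against DMSO, gained 10 and lost 11 against ATRA, and gained 8 and lost 8 against Corin.

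The places of the gained regions were read beside those of all 101 window regions, of which 74 overlapped the body of a neuronal gene and 73 lay at no annotated start. Of the 23 regions gained with ATRA+Corin, 20 overlapped the body of a neuronal gene, 1 lay at a neuronal start (RUNDC3A) and 22 lay at no annotated start. In a body lay 8 of the 12 regions gained with Corin and 9 of the 11 gained with ATRA, and none of these lay at a start. The 23 regions of the combination fell in 11 genes, among them SCN8A and UNC13A. In 11 of the 23 the −log10 q was 5 or higher, such as a region in intron 1 of BDNF, the gene of a neurotrophin, at chr11:27698693-27699366 (13.2 in ATRA, 6.32 in Corin, 17.6 in ATRA+Corin). Another lay over exon 6 of SYT7, a calcium sensor gene, at chr11:61541454-61542217 (5.77 in Corin, 14.4 in ATRA+Corin). Of the 8 regions lost with ATRA+Corin, 1 had a −log10 q of at least 5 in DMSO, the GRIN2A region beside its start site.

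**Figure D3:**
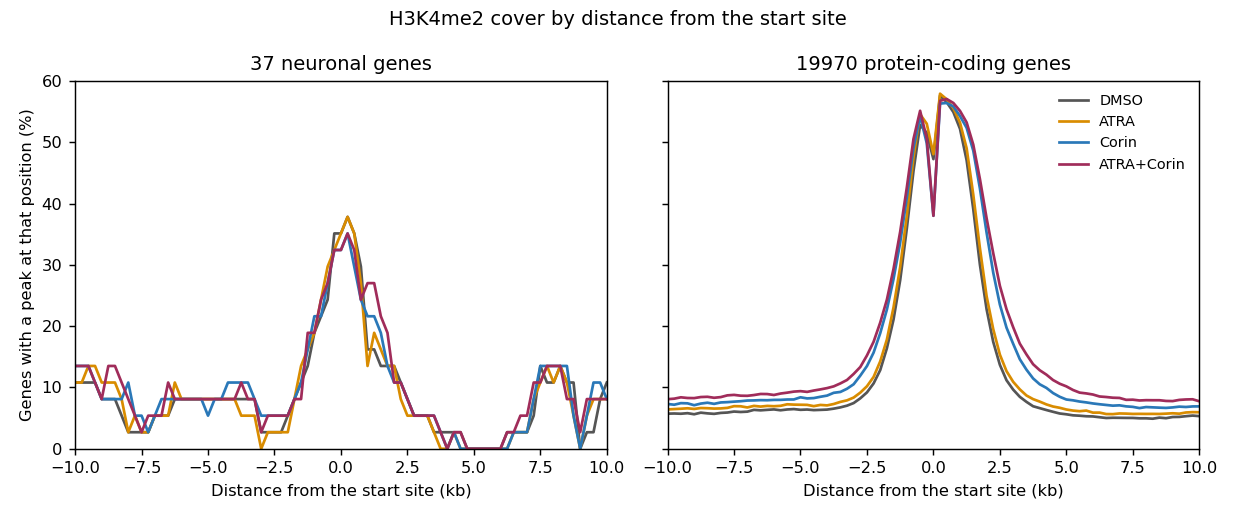
Percent of start sites with a peak at each distance (kb, x axis), for the 37 genes on the left and all 19970 protein-coding genes on the right, 1 line per list. Over all genes the 2 lists with Corin lie lower at the start site (38.0% compared with 47.3% in DMSO) and 250 bases to each side of it, and higher than DMSO from 750 bases outward, and over the 37 genes the 4 lines cross and each step is 1 gene.

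The median start site peak of the neuronal genes had nearly the same width in the 4 lists. Over the 12 covered in all 4 lists the median width was 2108 bases in DMSO, 2084.5 in ATRA, 2080.5 in Corin and 2155.5 in ATRA+Corin. Over all 6151 protein-coding start sites covered in all 4 lists it was 2551, 2724, 2930 and 3082 bases. The background medians were higher in each drug list than in DMSO. The neuronal peaks also reached less far downstream, by 892.5 bases in DMSO compared with 1607 over all genes, and 968.5 compared with 2032 in ATRA+Corin. Upstream they reached farther, by 1149.5 bases in DMSO compared with 879 over all genes, and 1105.5 compared with 956 in ATRA+Corin. The narrowest DMSO peak of the 12 was 701 bases (SYN1) and the widest 9988 bases (TUBB3).

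Among RE1-like matches the mark was found at a minority. Of the 38 matches in the 37 windows, 11 lay under a peak in DMSO (28.9%, 17.0 to 44.8%), 11 in ATRA, 9 in Corin (23.7%, 13.0 to 39.2%) and 10 in ATRA+Corin. Over the 7264 matches of the genome the shares were 5.85%, 5.97%, 6.46% and 7.31%. The members' windows surround start sites, where peaks are dense, and this difference from the genome was not adjusted for that. Of the 13 matches of all 16 fixed bases, 6 lay under a peak in DMSO and in ATRA (46.2%, 23.2 to 70.9%). In Corin and in ATRA+Corin 5 did (38.5%, 17.7 to 64.5%), the 1 that differed being that of NEFH. Of the 171 such matches in the genome 12.3% (DMSO), 11.7% (ATRA), 11.7% (Corin) and 12.9% (ATRA+Corin) did, likewise without adjustment. The match of CPLX2 320 bases downstream of its start site lay outside the Corin peak alone. Start sites with a match within 1 kb were covered in 7 of 18 genes in DMSO and ATRA and in 6 of 18 in the lists with Corin. Those without were covered in 6 of 19 in every list. In DMSO the intervals were 20.3 to 61.4% with a match and 15.4 to 54.0% without. They overlap widely, so these counts cannot decide whether the letters go with cover, and no test was made.

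Base composition was compared between covered and uncovered neuronal start sites, without a test. Over 1 kb around the start site, the 13 genes covered in a list had a median GC content of 70.3% (range 53.3 to 79.8%) and the 24 uncovered ones 64.6% (32.0 to 84.5%). The ratio of observed to expected CpG was 0.798 and 0.695, and over all genes the medians were 61.3% and 0.725. Over all genes those covered in DMSO also had the higher medians, 64.5% and 0.787, compared with 57.5% and 0.587 for those uncovered, so the direction is not particular to the neuronal genes. The neuronal ranges overlap, and CPLX1, L1CAM and GRIN1 are GC-rich and uncovered. Of the 24 uncovered in DMSO, 3 had a peak within 1 kb, 9 had the nearest one at 1 to 20 kb and 12 lay farther than 20 kb from any peak.

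The genes of the repressor machinery itself were examined in the same way. Of 20 genes of the REST and CoREST machinery, 15 had a covered start site in DMSO, 16 in ATRA, 10 in Corin and 11 in ATRA+Corin, beside background shares of 47.3%, 48.1%, 38.0% and 38.0%. With Corin 6 of the 15 lost cover (background 24.4%) and 1 of the other 5 gained it (background 4.39%), and with ATRA+Corin 6 lost it (background 25.2%) and 2 of 5 gained it (background 5.09%). The start sites of REST, KDM1A, HDAC2 and RCOR2, a CoREST paralog gene, were covered in all 4 lists. That of HDAC1 was covered in DMSO, ATRA and Corin and uncovered in ATRA+Corin. Those of RCOR1 and RCOR3, which encode the other CoREST proteins, were covered in DMSO and ATRA and uncovered in the lists with Corin. No interval was computed for these lost and gained counts, so no difference from the background is read from them. The windows of RCOR1 and RCOR3 did not lose covered length. That of RCOR1 held 8.31 kb in DMSO, 10.5 kb in ATRA, 11.96 kb in Corin and 15.5 kb in ATRA+Corin. That of RCOR3 held 4.49, 4.99, 4.70 and 5.14 kb in the same order. The window of REST held 4.50 kb in DMSO, 5.44 kb in ATRA, 5.80 kb in Corin and 6.07 kb in ATRA+Corin. In Corin 19 of the 20 windows had more covered length than in DMSO (background 73.0%) and in ATRA+Corin 18 did (background 77.1%).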

How the data were processed

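The 4 peak lists, 1 per treatment, were made by the authors from 2 H3K4me2 libraries and 1 input each. The submitters' processing notes name Trimmomatic, Bowtie2, Picard and MACS2 and the build hg38; versions and thresholds are not given in the sources used here. Each deposited peak has a score, a fold over input (a ratio), a −log10 p and a −log10 q from the authors' peak caller, and a summit offset. The score was not used, and the offset served only to place the summits of the strongest DMSO start site peaks. The deposited fold and −log10 values rank, filter and describe the peaks of their own list, and they served to recover depth: each peak's deposited fold and −log10 p were solved for whole fragments and background, with −log10 p met within 0.001, for 100% of peaks in each list.

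Genes, canonical starts and transcript parts came from GENCODE release 44, and sequences from the hg38 genome. Coordinates count from 1. A start site was covered when a peak overlapped it. Overlapping or touching peaks of the 4 lists were joined into regions, counted as gained where only the treated list had a peak and as lost where only the reference had one. Analyses used Python 3.11.15, numpy 2.4.6, pandas 2.3.3, scipy 1.17.1 and matplotlib 3.10.9, and counting functions were tested on simulated data. Every comparison is of counts and lengths without a test. The alternatives tried were a −log10 q minimum of 5, equal numbers of peaks, equal depth, windows of 10 and 50 kb or without the gene body, other start definitions, peaks within 1 kb merged, and other motif limits. Leaving out regions within 1 kb of another gene's start was added after seeing the data.

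The 37 genes and the lists of repressor, marker and further RE1 genes were chosen with earlier results of these data known. The neural marker list is reported here for 4 genes, and 1 further item is not reported here. Described with values were genes whose start cover changed, the 8 with the largest difference in covered length between ATRA+Corin and DMSO, the 5 with the strongest DMSO start peak, and SYN1, SNAP25 and SCN2A. Values of GRIN2A, NEFH, CPLX2, BDNF and SYT7 were added after they were seen.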

Additional observations from a re-analysis of the deposited data

How the results depend on the processing

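Start counts per list were 12 or 13 under a −log10 q of at least 5, equal numbers of peaks and equal depth. When a peak within 1 kb counted as cover, 1 start was lost with ATRA; 1 was gained with Corin; 2 were gained and 2 lost with ATRA+Corin against DMSO; 2 were gained against ATRA; and 1 was gained and 1 lost against Corin. When any basic transcript start counted, ATRA+Corin lost 2 against DMSO, 2 against ATRA and 1 against Corin. With windows of 50 kb the lists held 172 (DMSO), 175 (ATRA), 183 (Corin) and 206 (ATRA+Corin) peaks and 239.6, 263.9, 288.9 and 319.0 kb, and the gained regions were 25 (ATRA), 27 (Corin) and 53 (ATRA+Corin) against DMSO, 41 against ATRA with 12 lost, and 37 against Corin with 10 lost. Without the gene body the counts gained against DMSO were 3, 6 and 9 and lost 4, 4 and 5, and the combination gained 8 and lost 3 against ATRA and gained 6 against Corin. With peaks within 1 kb merged, 5, 7 and 15 regions were gained against DMSO. With only peaks of a −log10 q of at least 5, 4, 3 and 2 were lost against DMSO; at equal depth 3, 4 and 4 were. With equal numbers of peaks the combination gained 12 against DMSO (10 lost), 10 against ATRA (11 lost) and 8 against Corin (8 lost), so its surplus of gained over lost regions shrank to 2 against DMSO and was not seen against either single drug. When the peak of a gained or lost region had to reach a −log10 q of 5, there were 3 gained with ATRA and 11 with ATRA+Corin against DMSO, 1 lost in each of the 3 contrasts, 9 gained and 3 lost against ATRA, and 6 gained and 3 lost against Corin. With at most 1 mismatch, 47.1% (DMSO), 47.1% (ATRA), 41.2% (Corin) and 41.2% (ATRA+Corin) of the RE1-like matches in the windows lay under a peak. Of those of the genome 6.07%, 5.99%, 6.70% and 7.96% did, in the same order. Within 500 bases of a peak lay 8.85%, 9.20%, 9.65% and 11.0% of the genome's matches in the order DMSO, ATRA, Corin, ATRA+Corin. Where a setting changes which peaks or bases are counted, that is its construction; other causes were not tested.

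No paired analysis was possible because each treatment has 1 pooled list, and for the same reason no run without a replicate exists. The lists differ in depth, a deeper library detects weaker peaks, and equal depth acts only on deposited summits; it adds no peaks.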

Other observations

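A further 15 genes with known RE1 elements outside the 37 were examined in the same way. The start site of STX1A, a vesicle fusion gene, was covered in all 4 lists and those of the other 14 in none. The median window held 1.72 kb under a peak in DMSO, 2.30 kb in ATRA, 3.28 kb in Corin and 2.90 kb in ATRA+Corin. Of the 15, 11 had more covered length in ATRA+Corin than in DMSO (background 77.1%) and 2 had less (background 7.76%). NPPA and NPPB are neighbours whose windows share the same covered stretch, and each is counted here. Of the genes singled out here after their values were seen, the opioid receptor gene OPRM1 held 0.626 kb in DMSO, 3.73 kb in ATRA, 4.40 kb in Corin and 7.83 kb in ATRA+Corin. The calcium channel gene CACNA1A held 10.4, 9.38, 17.0 and 20.3 kb.

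Over the whole genome, 316 protein-coding genes had an RE1-like match within 1 kb of the start site. A peak lay over the start site of 134 of them in DMSO (42.4%, compared with 47.3% of genes without a match), 139 in ATRA, 113 in Corin (35.8%, compared with 38.1%) and 121 in ATRA+Corin (38.3%, compared with 38.0%). Of the 182 uncovered in DMSO, 9 gained cover with ATRA (4.95%, compared with 8.97% of genes without a match), 4 with Corin (2.20%, compared with 4.43%) and 10 with ATRA+Corin (5.49%, compared with 5.08%). Of the 134 covered, 4 lost it with ATRA (2.99%, compared with 8.31%), 25 with Corin (18.7%, compared with 24.5%) and 23 with ATRA+Corin (17.2%, compared with 25.4%). These genes include the neuronal genes described above with a match there.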
